A study of Sus scrofa with 3 samples.

Results

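Cultured pig stromal cells were examined for their RNA of 5 trophic factors and 4 receptors, namely the ligands HGF, KITLG, BDNF, NTF3 and GDNF, and the receptors MET, KIT, NTRK2 and NGFR. They were taken by name from the deposited expression table, and all 9 were found among its 30477 genes. The samples were 3 cultures of mesenchymal stem cells (MSC) derived from adult pig fat and kept in advanced MEM with human platelet lysate. They form a single group with no second condition, and their label numbers give them the names cultures 1, 2 and 3. The sources used here do not give breed, sex, passage or the animal behind each culture, so the spread between cultures may be partly technical. The series belongs to work on MSC given to arteriovenous fistulas, the vein-to-artery connections used for hemodialysis.

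HGF, hepatocyte growth factor, is made mostly by mesenchymal cells and is secreted as a single chain that proteases must cut before it can activate MET, a receptor tyrosine kinase found mainly on epithelial and endothelial cells. KITLG, stem cell factor, is a membrane protein that can also be released by proteases, and it activates KIT on mast cells, melanocytes, germ cells and blood progenitors. BDNF and NTF3 are neurotrophins, released as precursors and bound by the kinases NTRK2 and NTRK3, while NGFR (p75) binds every neurotrophin. GDNF signals through the kinase RET together with a GFRA co-receptor held on the membrane by a lipid anchor. MSC are commonly described as a source of such factors for neighbouring cells.

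Levels are in RPKM, read numbers divided by gene model length and by library size, and so can be compared between genes per length. In a bulk sample, fewer cells that express a gene and less RNA per cell cannot be told apart. The libraries held 51788677, 62248183 and 64774044 reads over genes in cultures 1, 2 and 3. Culture 1 stood apart in composition, with 70.3% of its reads over protein-coding genes against 88.6% and 88.8% in cultures 2 and 3. All 37 genes of the mitochondrial chromosome were listed at 0. Of the cell type marker lists, the MSC list had 9 of 9 genes called above 1 RPKM in the limma test described below. Of the other lists 2 of 8 melanocyte, 2 of 7 Schwann cell, 1 of 7 neuron and 1 of 7 endothelial genes measured were called above. No call above was made for 4 mast cell, 8 leukocyte and 5 epithelial or mesothelial genes. The melanocyte gene MITF and the epithelial gene KRT7 exceeded 1 RPKM in each culture, but neither was decided in that test. The neuron gene SYP was not decided either. The leukocyte gene ITGAM reached 1.21 RPKM in culture 3, against 0.0977 and 0.143 RPKM in cultures 1 and 2. For a measure of background, the median of 105 olfactory receptor genes was 0.0612, 0.0513 and 0 RPKM in cultures 1, 2 and 3, and their 90th percentile was 0.124, 0.118 and 0.0329 RPKM.

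The ligands KITLG, HGF and GDNF lay above 1 RPKM in each culture, while of the 4 receptors only MET passed that level, in culture 2. KITLG averaged 61.1 ± 34.4 RPKM, HGF 8.35 ± 1.12 and GDNF 6.65 ± 1.44 (SD, n = 3 each). MET followed at 1.45 ± 1.10 RPKM, NTF3 at 1.24 ± 0.734, KIT at 0.526 ± 0.310, BDNF at 0.277 ± 0.0647, NTRK2 at 0.128 ± 0.173 and NGFR at 0.0361 ± 0.0108. Each gene's mean log2(RPKM + 0.5) was set against 1 RPKM with limma's moderated test over all 29479 genes with a read. In it 3 of the 9 lay above 1 RPKM (HGF, KITLG, GDNF), 4 lay below (KIT, BDNF, NTRK2, NGFR) and 2 were not decided (MET, NTF3). Over all genes tested 30.6% lay above and 60.8% below, so the share of the 9 above is near that of all genes. The median of their mean levels was 1.24 RPKM, against 0.128 RPKM for all genes with a read and 0.795 RPKM for the protein-coding ones. Besides a gene's own spread, the p-values draw on that of genes of similar level. So does the moderated SE given below with a log2 difference, which is not the spread over the cultures alone.

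**Figure D1:**
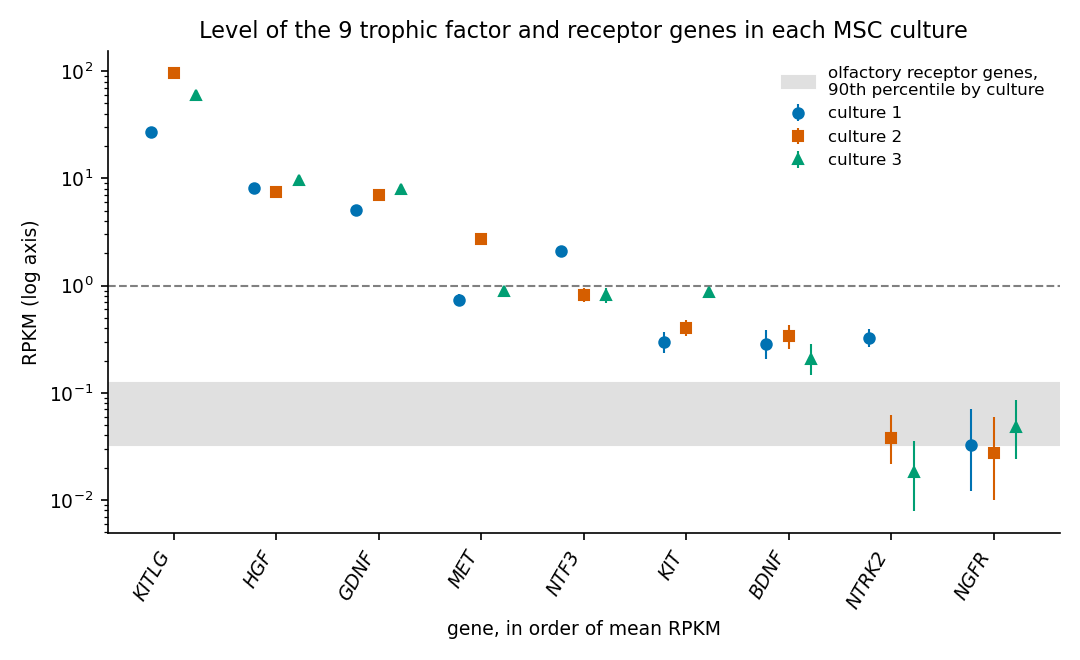
RPKM (log axis) of each gene in cultures 1, 2 and 3, with 95% exact Poisson intervals of the read count as bars (hidden where smaller than the symbol), a dashed line at 1 RPKM and a grey band over the range of the olfactory receptor 90th percentiles, 0.0329 to 0.124 RPKM. KITLG, HGF and GDNF lie above the line in each culture, and NGFR lies in or just under the band.

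In the order of mean levels, KITLG stood apart from HGF, and GDNF from MET, with no overlap between the ranges over the cultures. HGF and GDNF overlapped in range, although HGF was the higher in 3 of 3 cultures (mean difference 0.32 ± 0.27 in log2(RPKM + 0.5), SD, n = 3). Each later pair of neighbours (MET and NTF3, NTF3 and KIT, KIT and BDNF, BDNF and NTRK2, NTRK2 and NGFR) also overlapped in range. Of these only KIT and BDNF kept their order in 3 of 3 cultures. Pairs farther apart separated more often, and of the 15 pairs among the 6 genes from MET down to NGFR, 8 had ranges that did not overlap. MET and NTF3 lay wholly above BDNF, NTRK2 and NGFR, and KIT and BDNF lay wholly above NGFR.

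KITLG (ENSSSCG00000035495, susScr11 chromosome 5, 94017384 to 94110216) had 27.2, 95.9 and 60.2 RPKM in cultures 1, 2 and 3, from 8045, 34091 and 22274 reads. Culture 2 was highest and culture 1 lowest. On the log2(RPKM + 0.5) scale the mean lay 5.18 ± 0.31 above 1 RPKM (limma moderated SE, adjusted p = 3.3e-13, above in 3 of 3 cultures). The SD over the 3 cultures was 0.91 on that scale. KITLG ranked 496 among 20288 protein-coding genes by mean RPKM. Its highest and lowest cultures differed 3.53-fold. With median-of-ratios size factors they differed 2.82-fold and scaled to protein-coding reads 2.80-fold, in the same order of cultures.

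HGF (ENSSSCG00000015403, chromosome 9, 98437087 to 98513156) had 8.08, 7.39 and 9.57 RPKM in cultures 1, 2 and 3, from 3604, 3963 and 5343 reads. The cultures spanned a 1.30-fold range as deposited, 1.67-fold with median-of-ratios factors and 1.38-fold when scaled to protein-coding reads. HGF lay 2.55 ± 0.24 above 1 RPKM in log2 (limma moderated SE, adjusted p = 6.3e-12, above in 3 of 3 cultures), with an SD of 0.18. Culture 3 was highest as deposited, and culture 1 when scaled to protein-coding reads (11.5, 8.34 and 10.8 RPKM), so the highest culture was not firm for HGF. Culture 2 was lowest under each scaling.

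GDNF (ENSSSCG00000038727, chromosome 16, 22936601 to 22965886) had 5.10, 6.94 and 7.93 RPKM in cultures 1, 2 and 3, from 966, 1580 and 1880 reads. Culture 3 was highest and culture 1 lowest under each scaling. The range was 1.56-fold as deposited, 1.61-fold with median-of-ratios factors and 1.23-fold when scaled to protein-coding reads. GDNF lay 2.23 ± 0.24 above 1 RPKM in log2 (limma moderated SE, adjusted p = 2.3e-10, above in 3 of 3 cultures), with an SD of 0.30. The gene lies within the span of WDR70, which had 2.54, 3.69 and 3.50 RPKM. No source used here gives the strand setting, so reads from WDR70 within the GDNF model cannot be told apart from those of GDNF.

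NTF3 (ENSSSCG00000033544, chromosome 5, 65052517 to 65123788) had 2.09, 0.817 and 0.809 RPKM in cultures 1, 2 and 3, from 346, 163 and 168 reads. Culture 1 stood above the others, which could not be told apart within their counting intervals (0.697 to 0.953 and 0.692 to 0.942 RPKM). The mean was not decided against 1 RPKM (limma, adjusted p = 0.62). NTF3 ran opposite to KITLG, with culture 1 highest where KITLG was lowest. Culture 1 was also the library with the fewest reads over protein-coding genes, and scaling to those reads raised its NTF3 value to 2.96 RPKM, against 0.923 and 0.912 RPKM in cultures 2 and 3.

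BDNF (ENSSSCG00000013333, chromosome 2, 32623268 to 32679164) had 0.288, 0.336 and 0.208 RPKM in cultures 1, 2 and 3, from 42, 59 and 38 reads. The counting intervals of all 3 overlapped (0.207 to 0.389, 0.256 to 0.434 and 0.147 to 0.286 RPKM), and the difference between cultures was not tested. BDNF lay below 1 RPKM (limma, adjusted p = 8.9e-06, below in 3 of 3 cultures). It was nevertheless above the background, since 0 of 105 olfactory receptor genes reached its level in any culture.

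MET (ENSSSCG00000024351, chromosome 18, 29426044 to 29541512) had 0.739, 2.71 and 0.886 RPKM in cultures 1, 2 and 3, from 260, 1147 and 390 reads. Culture 2 was above the others, and its counting interval of 2.56 to 2.87 RPKM did not meet theirs. The 3.67-fold range as deposited was 2.94-fold with median-of-ratios factors and 3.07-fold when scaled to protein-coding reads. The mean was not decided against 1 RPKM (limma, adjusted p = 0.41). Since MET is typical of epithelial and endothelial cells, both marker lists were read beside it. The summed level of the epithelial and mesothelial list was 1.91, 3.85 and 1.33 RPKM in cultures 1, 2 and 3, of which the keratin KRT7 gave 1.06, 3.52 and 1.15. Of its 5 measured markers KRT7 and KRT8 were highest in culture 2, and EPCAM (0.279, 0.151 and 0.162 RPKM), CDH1 (0.439, 0.0684 and 0.00598 RPKM) and KRT18 in culture 1. The endothelial list summed to 1.76, 3.325 and 1.60 RPKM, most of it from PECAM1 (1.31, 2.97 and 1.48 RPKM), which lay above 1 RPKM (limma, adjusted p = 0.024) and overlaps the abundant DDX5. Of its 7 measured markers 3 were highest in culture 2 and 4 in culture 1. The part of either cell type in the MET value was not tested.

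KIT (ENSSSCG00000008842, chromosome 8, 41402043 to 41493735) had 0.296, 0.403 and 0.878 RPKM in cultures 1, 2 and 3, from 80, 131 and 297 reads. Culture 3 was above the others, with a counting interval of 0.781 to 0.984 RPKM, and the range was 2.97-fold. KIT lay below 1 RPKM (limma, adjusted p = 0.015, below in 3 of 3 cultures), but the call did not hold when culture 1 (adjusted p = 0.091) or culture 2 (adjusted p = 0.14) was left out. Mast cells and melanocytes are the cells best known for KIT. The 4 measured mast cell markers (HDC, MS4A2, GATA2, HPGDS) summed to 0.182, 0.373 and 0.197 RPKM, and 1 of them, MS4A2, was highest in culture 3. Of the 8 melanocyte markers 3 were highest in culture 3, namely MLANA (2.97, 3.50 and 7.50 RPKM), MITF (1.36, 1.43 and 2.19 RPKM) and DCT (0.173, 0.119 and 0.217 RPKM). Of the others 4 were highest in culture 1 and 1 in culture 2, and the list summed to 17.8, 13.5 and 16.7 RPKM. EDNRB, highest in culture 1, gave 13.0, 8.30 and 6.70 RPKM of these sums. The pigment enzymes TYR and TYRP1 were listed at 0 in culture 3, where the olfactory receptor median was also 0. In cultures 1 and 2 both lay under the olfactory 90th percentile (0.124 and 0.118 RPKM), so neither could be told from background. The part of either cell type in the KIT value was not tested.

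NTRK2 (ENSSSCG00000010959, chromosome 10, 30033379 to 30429882) had 0.327, 0.0379 and 0.0182 RPKM in cultures 1, 2 and 3, from 115, 16 and 8 reads. Culture 1 stood apart, with a counting interval of 0.270 to 0.393 RPKM against 0.0216 to 0.0615 and 0.00785 to 0.0358. In culture 1 none of the 105 olfactory receptor genes reached the level of NTRK2, while 66 did in culture 2 and 20 in culture 3. NTRK2 lay below 1 RPKM (limma, adjusted p = 7.5e-10, below in 3 of 3 cultures). An unnamed protein-coding entry inside its span (ENSSSCG00000044063) held 28, 15 and 1 reads. Neuronal and Schwann cell markers were read beside it. SYT1, a synaptic vesicle protein, had 8.49, 1.72 and 1.58 RPKM, and was the only one of 7 neuron markers highest in culture 1. Of 7 measured Schwann cell markers 4 were highest there, among them CDH19 (0.107, 0.0484 and 0.00388 RPKM), while SOX10 was at 0.0104 RPKM. Both CDH19 and SOX10 lay under the olfactory 90th percentile in each culture. The neuron list summed to 9.38, 2.96 and 4.53 RPKM and the Schwann cell list to 127, 60.85 and 50.1 RPKM, most of the second from ERBB3, which overlaps the abundant MYL6. Their part in the NTRK2 value was not tested.

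NGFR (ENSSSCG00000017548, chromosome 12, 25699427 to 25720357) had 0.0328, 0.0273 and 0.0481 RPKM in cultures 1, 2 and 3, from 6, 6 and 11 reads. In cultures 1 and 2 NGFR could not be told from background, since 80 and 84 of 105 olfactory receptor genes were at or above its level. In culture 3, where it was highest, 6 of the 105 were. NGFR, known as CD271, is used as a marker of some fresh stromal cell populations. It lay below 1 RPKM (limma, adjusted p = 1.1e-26, below in 3 of 3 cultures).

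**Figure D2:**
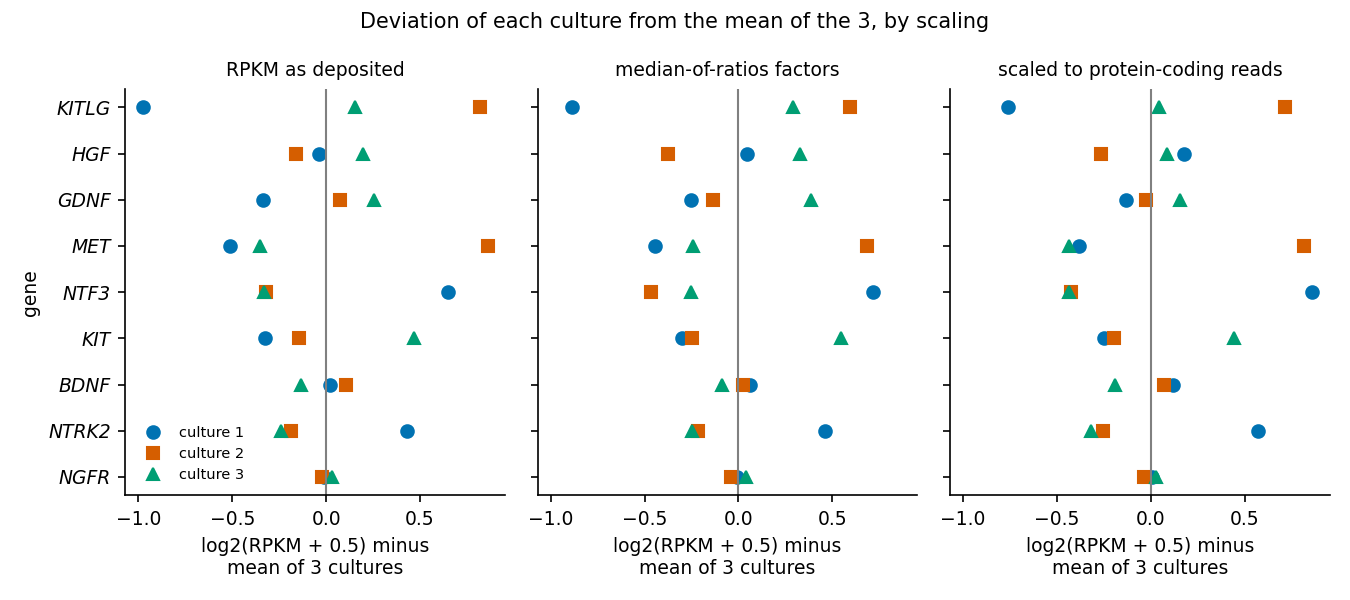
Deviation of each culture's log2(RPKM + 0.5) from the mean of the 3 cultures, for each gene, in RPKM as deposited, with median-of-ratios size factors and scaled to protein-coding reads. Under each scaling culture 2 is highest for KITLG and MET, culture 1 for NTF3 and NTRK2, and culture 3 for GDNF and KIT, while the highest culture for HGF and BDNF changes with the scaling.

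The spread between cultures was tested for the 5 of these genes that averaged 1 RPKM or more, against genes of like level. In that limma F test 0 of 10474 genes passed the adjusted threshold (0%), and 621 had an unadjusted p under 0.05 (5.93%). No gene could therefore be called variable with all cultures. The lack of calls does not show even spread. In simulated data where the unchanged genes had unlike spreads, this test recovered no gene of large spread. Its prior had 4.46 degrees of freedom in these data. Without culture 3, 131 genes passed, with none of these 5 among them, but each spread then came from only 2 cultures. Of the pathway genes PCSK1, MMP3 and CSF1 were among the 131. KITLG had the largest ratio of the 5, with 6.90% of genes above it (unadjusted p = 0.060, adjusted p = 0.87). MET had 13.6% of genes above it (unadjusted p = 0.13), NTF3 27.0%, GDNF 48.1% and HGF 75.1%. For comparison, the median range over those 10474 genes in RPKM as deposited was 1.59-fold and the 90th percentile 3.16-fold. KITLG and MET lay beyond the latter percentile. Their ranges were smaller under the other scalings, for which no percentile was computed. The ranges of HGF and GDNF as deposited lay below the median. With median-of-ratios factors they were wider, 1.67-fold and 1.61-fold, and no median was computed for that scaling.

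Most ligands stood above their receptors in each culture. KITLG exceeded KIT 91.9-fold, 238-fold and 68.6-fold in RPKM in cultures 1, 2 and 3, a mean difference of 5.77 ± 0.85 in log2(RPKM + 0.5) (SD, n = 3). HGF exceeded MET 10.9-fold, 2.72-fold and 10.8-fold (2.32 ± 0.88), with culture 2, where MET was highest, apart. GDNF exceeded its co-receptor GFRA1 7.36-fold, 15.1-fold and 81.0-fold (3.0 ± 0.79) and RET 75.9-fold, 63.8-fold and 201-fold (3.63 ± 0.33). RET had 70 reads in all and lay under the olfactory 90th percentile in cultures 1 and 2, so its ratios are imprecise. NTF3 exceeded NTRK3 28.3-fold, 17.5-fold and 144-fold (1.61 ± 0.49), but NTRK3 had 39 reads in all, so these ratios are imprecise. BDNF exceeded NTRK2 in 2 of 3 cultures (0.34 ± 0.37), a difference within its spread, and NGFR in 3 of 3 (0.53 ± 0.15). With 3 cultures no exact sign-flip test of such a difference can go below p = 0.25, so these are descriptions. They also compare RNA levels only.

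The wider neurotrophin family held few genes above 1 RPKM. Over all genes tested 30.6% lay above and 60.8% below. These shares stand beside each list count from here on, and no list was tested against them. Of 3 neurotrophins reported, BDNF and NTF4 lay below and NTF3 was not decided. NTF4 had 0.109 ± 0.0710 RPKM from 39 reads and overlaps SNRNP70. Of 8 neurotrophin receptors reported 7 lay below. The exception was SORT1 (sortilin), a sorting receptor that also binds neurotrophin precursors, with 39.3, 61.4 and 51.9 RPKM (limma, adjusted p = 1.2e-18). The kinase NTRK3 (0.0420 ± 0.0342 RPKM) was among those below, as were the sortilin relatives SORCS1 (0.102 ± 0.0682), SORCS2 (0.0513 ± 0.0233) and SORCS3 (0.0727 ± 0.0503), while SORL1 had 0.180 ± 0.0455 RPKM (SD, n = 3 each).

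Of 5 ligands on the GDNF family list that were in the table, 4 had reads. GDNF lay above 1 RPKM, as did GDF15, put on the list as a stress-induced ligand of the brainstem receptor GFRAL. NRTN and PSPN lay below. GDF15 had 3.06, 4.87 and 15.3 RPKM in cultures 1, 2 and 3, with culture 3 highest. NRTN (10 reads) and PSPN (4 reads) each overlap expressed genes, and ARTN was listed at 0 in each culture, which allows at most 3 reads a library. Of 7 genes on the GDNF family receptor list 1 lay above (SDC3, an alternative GDNF binder), 4 below and 2 were not decided. GFRA1, the main GDNF co-receptor, had 0.692, 0.458 and 0.0979 RPKM, lowest in culture 3, and lay below 1 RPKM (limma, adjusted p = 0.0012), though not with culture 3 left out (adjusted p = 0.13). GFRA2 ran the other way, with 0.167, 0.817 and 1.13 RPKM, and was not decided (limma, adjusted p = 0.12), though without culture 3 it lay below (adjusted p = 0.019). RET, which every ligand of the family needs for its kinase signal, had 0.0671, 0.109 and 0.0395 RPKM and lay below (limma, adjusted p = 2.3e-15).

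The other receptors were GFRA4 (0.322 ± 0.0645 RPKM) and GFRAL (0.0322 ± 0.0212 RPKM), both below 1 RPKM, and the alternative GDNF binders NCAM1 and SDC3. NCAM1, an adhesion molecule that can bind GDNF, had 0.297, 1.24 and 0.380 RPKM and was not decided (limma, adjusted p = 0.056). Without culture 2 it lay below (adjusted p = 0.0079). The heparan sulfate proteoglycan SDC3 had 1.08, 3.42 and 2.90 RPKM and lay above (limma, adjusted p = 0.0030), which did not hold with culture 2 (adjusted p = 0.090) or culture 3 (adjusted p = 0.057) left out.

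**Figure D3:**
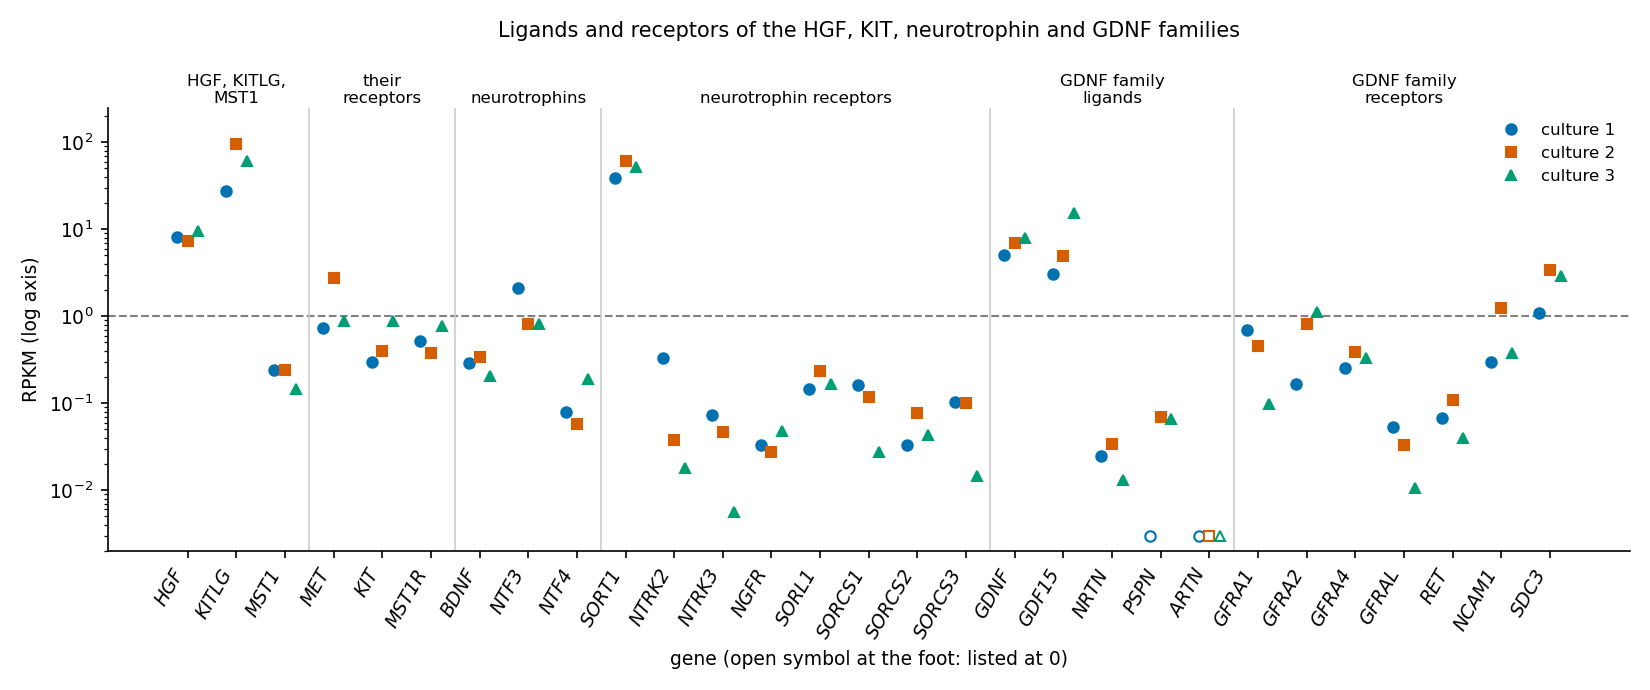
RPKM (log axis) in cultures 1, 2 and 3 for the ligands and receptors of the HGF, KIT, neurotrophin and GDNF families, with a dashed line at 1 RPKM and open symbols for genes listed at 0. KITLG at 27.2 to 95.9 RPKM and SORT1 at 39.3 to 61.4 RPKM are the highest, and NTRK3, NGFR and RET lie near or below 0.1 RPKM.

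Among the genes that activate HGF, the plasminogen activators were expressed and the membrane proteases were not. PLAU (urokinase) had 43.2, 77.1 and 55.9 RPKM in cultures 1, 2 and 3, and PLAT (tissue plasminogen activator) 7.29, 7.72 and 5.23. These 2 of 8 genes lay above 1 RPKM and 6 lay below. Those below were the activators HGFAC, ST14, HPN and KLKB1 and the inhibitors SPINT1 and SPINT2, with means of 0.0336 to 0.0656 RPKM from 14 to 32 reads each.

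Of 6 partners or relatives of MET, 4 lay above 1 RPKM and 2 below. The hyaluronan receptor CD44, of which some isoforms act as MET co-receptors, had 70.9, 80.3 and 83.8 RPKM. NRP1 had 34.9, 74.8 and 73.4 RPKM, the proteoglycan SDC1 7.10, 13.1 and 9.98, and PLXNB1, a semaphorin receptor that pairs with MET, 2.0, 3.57 and 2.73, which overlaps CCDC51. MST1, the relative of HGF, had 0.211 ± 0.0554 RPKM and overlaps RNF123. Its receptor MST1R had 0.524, 0.376 and 0.775 RPKM, and lay below 1 RPKM (limma, adjusted p = 0.031), though not with culture 2 left out (adjusted p = 0.28) or after scaling to protein-coding reads (adjusted p = 0.11).

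The signalling proteins used by MET and KIT were expressed, with 10 of 11 above 1 RPKM. The highest were the phosphatase PTPN11 (43.9 ± 11.6 RPKM), the adaptor SHC1 (39.6 ± 5.09 RPKM, which overlaps FLAD1) and the transcription factor STAT3 (31.6 ± 3.94 RPKM; SD, n = 3 each). The member below was PTPN6, a phosphatase of blood cells, at 0.110 ± 0.0581 RPKM, named after its value was seen. Of 11 effectors of neurotrophin receptors 9 lay above and 1 below. MAGED1, which binds NGFR, had 94.6, 75.9 and 58.6 RPKM, the NTRK substrate KIDINS220 12.3, 25.5 and 26.9, and the adaptor CRKL 19.3, 23.9 and 18.5. Such proteins serve many receptors, so their levels are not particular to these pathways.

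Proteases that release or process the ligands were mostly present, and a few differed widely between cultures. For KITLG release, ADAM17 had 10.1 ± 1.51 RPKM and ADAM10 9.27 ± 2.32 RPKM, each of which overlaps another expressed gene, and MMP9 had 0.175, 0.699 and 7.66 RPKM in cultures 1, 2 and 3. In the list that holds them together with ligands and receptors of the kinases related to KIT, 4 of 8 lay above 1 RPKM, 2 below (CSF1R and FLT3) and 2 were not decided (IL34 and MMP9). Without culture 3, MMP9 lay below (limma, adjusted p = 0.0074). CSF1, the macrophage growth factor, had 4.93, 29.7 and 11.7 RPKM, with culture 2 highest and culture 1 lowest as for KITLG. The FLT3LG entry stood at 68.2 ± 23.8 RPKM, but its span holds SNORD33, SNORD34 and SNORD35A, snoRNAs that in human lie in the ribosomal protein gene RPL13A. No entry was found under the name RPL13A, so the reads listed for FLT3LG cannot be assigned to it. ADAM10, MMP9, IL34, CSF1R and FLT3 were named after their values were seen.

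Of 8 genes that process or cut neurotrophin precursors, 5 lay above 1 RPKM, 2 below and 1 was not decided. The convertase PCSK1, known from neuroendocrine cells, had 180, 1.39 and 19.2 RPKM in cultures 1, 2 and 3, a 130-fold range. That range had an unadjusted p of 1.8e-04 in the limma F test and an adjusted p of 0.36. Without culture 3 it was called (limma, adjusted p = 2.2e-23), as were the ranges of MMP3 (adjusted p = 1.3e-04) and CSF1 (adjusted p = 0.012). Those tests used 2 cultures, so their p-values depend on the spread taken from other genes. They are not stronger evidence of variability than the test with all cultures. The level of PCSK1 was not decided against 1 RPKM (limma, adjusted p = 0.17), although each culture lay above it. Without culture 2 the level was called above (limma, adjusted p = 4.7e-30). That fit held 2 cultures far apart, so its p-value draws mostly on the spread of other genes rather than PCSK1's own. MMP3, which can cut neurotrophin precursors, had 5.48, 50.9 and 56.7 RPKM, lowest in culture 1. It lay above 1 RPKM (limma, adjusted p = 0.040), though not with a pseudocount of 0.1 RPKM (adjusted p = 0.057). PCSK5 was steady at 19.3, 21.2 and 22.9 RPKM. FURIN, the widely used convertase, had 4.91 ± 1.75 RPKM (SD, n = 3), named after its value was seen.

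**Figure D4:**
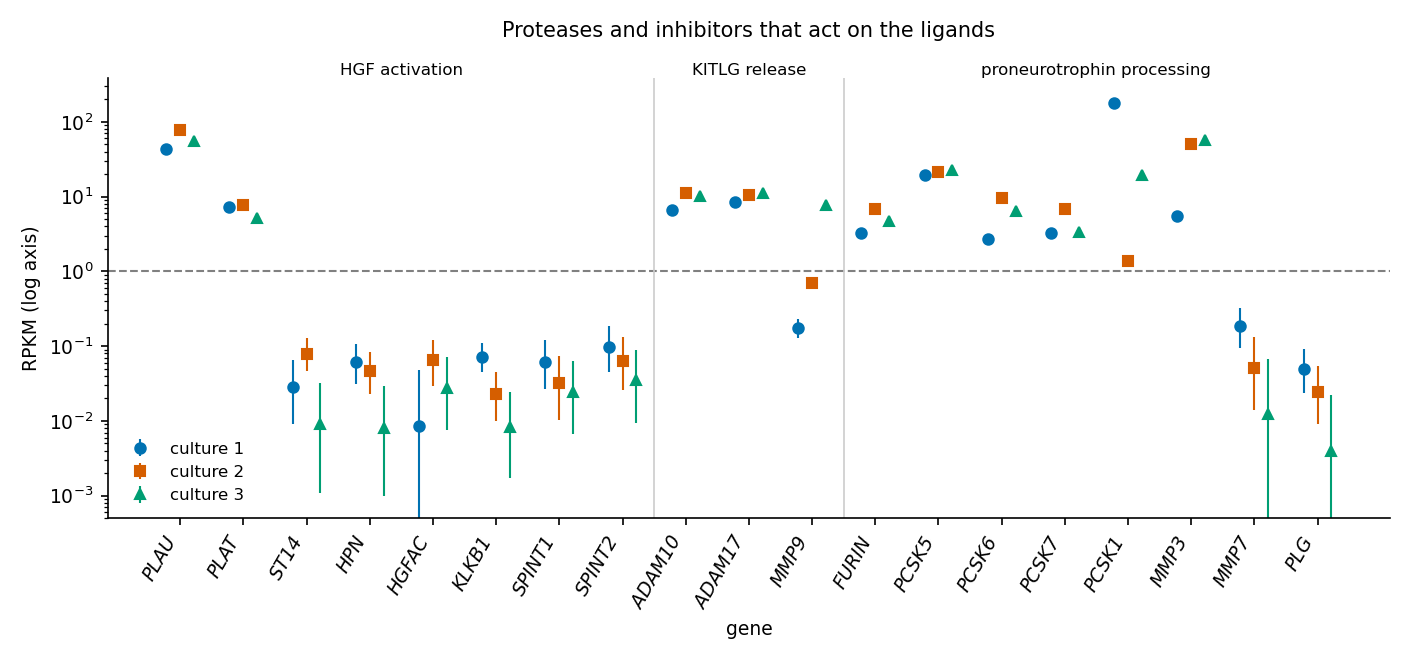
RPKM (log axis) in cultures 1, 2 and 3 for proteases and inhibitors listed for HGF activation, KITLG release and neurotrophin precursor processing, with 95% exact Poisson intervals of the read count and a dashed line at 1 RPKM. PCSK1 spans 1.39 to 180 RPKM, while PCSK5 stays between 19.3 and 22.9 RPKM.

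Of 78 genes with a read on the 11 pathway lists beside the 9, 42 lay above 1 RPKM, 28 below and 8 were not decided. The lists were chosen with earlier results of these data known, and 16 of the 79 genes in the table overlap an entry with at least 10% of their own reads. Signalling adaptors and effectors were the lists with most genes above, and the neurotrophin receptors and HGF activation those with most below.

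**Figure D5:**
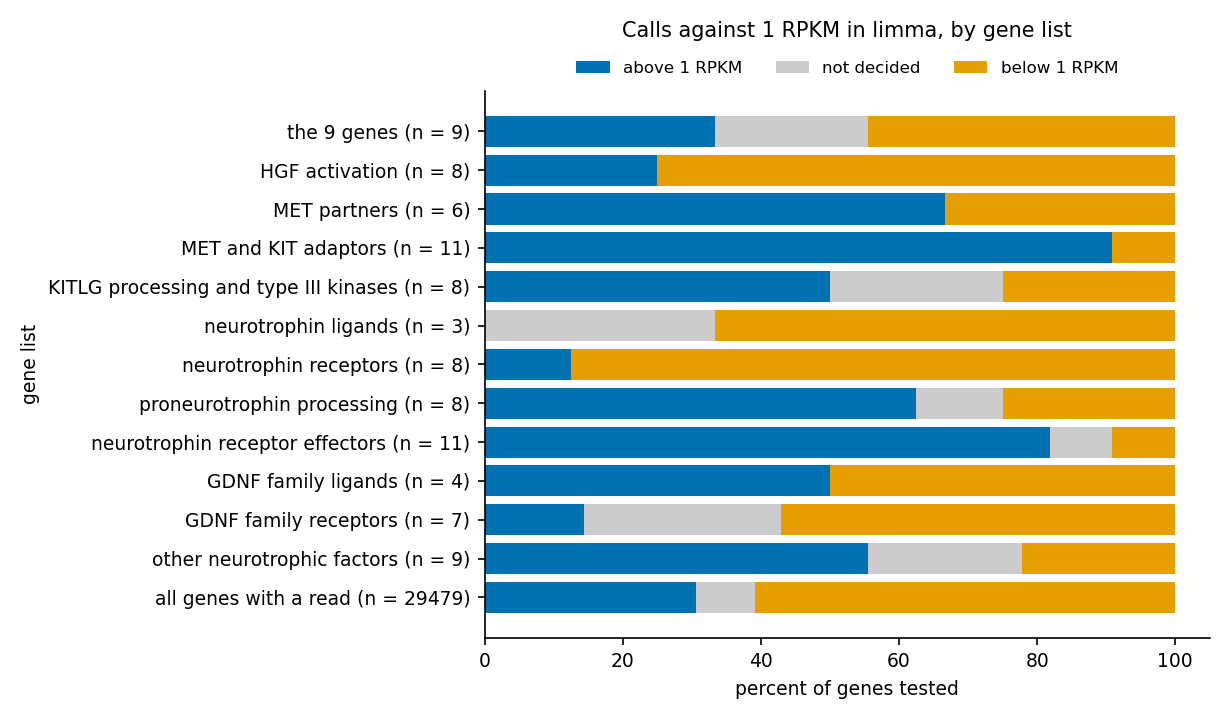
Percent of the genes tested on each list that limma placed above 1 RPKM, below it or did not decide, with all 29479 genes with a read as the last bar (30.6% above, 60.8% below). Of the adaptors of MET and KIT 10 of 11 lie above, and of the neurotrophin receptors 7 of 8 lie below.

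The named genes with the most similar values were found for the same 5 genes, by Euclidean distance in log2(RPKM + 0.5) over the 3 cultures. For KITLG they were PDIA4 (distance 0.13) and ATP2B4 (0.29), for HGF HAPLN4 (0.04) and MTURN (0.10), and for GDNF DCP2 (0.02) and NHLRC2 (0.07). For MET they were a U6 snRNA entry (0.03) and ITPR1 (0.12), and for NTF3 ATRNL1 (0.16) and HOXB6 (0.21). With 3 cultures and 16465 named genes, close values are common and say nothing of shared control.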

How the data were processed

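The authors deposited a single table of RPKM for 30477 Ensembl genes, per the file headers. The submitters' processing notes name the build susScr11. No source used here gives the aligner, counter, annotation release or strand setting. Per the labels' protocols, RNA was isolated with the miRNeasy kit and libraries were made with TruSeq V2. RPKM multiplied by model length plus 1 base gave whole reads for 100% of values (tolerance 1e-06 of a read), so depth and 95% exact Poisson intervals, which cover counting error only, could be computed. A floor of 3 reads was set for a count of 0, a convention that lies under the upper Poisson limit. At 1 RPKM a model of 2 kb held 104, 124 and 130 reads in cultures 1, 2 and 3.

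Levels on the scale log2(RPKM + 0.5), where differences of low genes are understated, were tested by limma 3.58.1 (R 4.3.3) with a trended robust prior and Benjamini-Hochberg adjustment over all genes with a read (threshold 0.05). For spread, the variance between cultures was divided by the prior variance (F test, mean of at least 1 RPKM). Both were tested on simulated data, where the spread test recovered most genes of large spread when the unchanged genes had like spreads, and none when those were unlike. The 9 genes and all lists were chosen with earlier results of these data known. Genes named are the 9, their measured ligand, receptor, HGF activation and MET partner lists, the 3 highest of each other list, and overlapping and nearest genes. Other names are said to have been chosen after their values were seen. Of the genes without a name in the table, 785 were named through an Ensembl ID table, among them FLT3LG and GFRA4. Of 82 further pathway genes 79 were matched. A few list genes are not reported here.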

Additional observations from a re-analysis of the deposited data

How the results depend on the processing

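The calls of the 9 genes against 1 RPKM gave 91 of 98 unchanged values over the alternatives, 4 lost calls and 3 gained, with no reversal. Against 0.5 RPKM in place of 1, 5 of the 9 lay above and 2 below, since MET and NTF3 came out above and BDNF and KIT were no longer decided. Of all 29479 genes tested, 10406 lay above 0.5 RPKM and 16471 below. Against 2 RPKM NTF3 lay below. Testing only genes that averaged 0.1 RPKM or more left 3956 genes below 1 RPKM and 11 of the pathway genes, since fewer low genes were then tested. Among other genes, MST1R lay 0.0644 above 0.5 RPKM and SH2B1 -0.11 from 2 RPKM in log2, both with the opposite sign to their main value. The count of genes with large spread was 0 to 131 with each culture left out, 131 without culture 3, and the cause was not tested. With a culture left out each fit held 2 cultures, so its p-values lean more on the spread of other genes. Ligand minus receptor differences in log2 grew with a pseudocount of 0.1 RPKM, to 0.97 for BDNF and NTRK2, 1.46 for BDNF and NGFR, 3.135 for NTF3 and NTRK3, 3.90 for GDNF and GFRA1 and 5.29 for GDNF and RET. With 1 RPKM they were 0.30 for BDNF and NGFR, 1.055 for NTF3 and NTRK3 and 2.82 for GDNF and RET. This follows from receptors near 0. Median-of-ratios factors moved the median protein-coding gene by 0.08, -0.21 and 0.13 in cultures 1, 2 and 3, and scaling to protein-coding reads by 0.47, 0.16 and 0.16 (log2). No paired analysis was possible because the labels give a single group. NGFR and BDNF, with few reads, are limited by depth.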

Other observations

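Neurotrophic factors of other families were also read. Of 9 measured genes 5 lay above 1 RPKM, 2 below and 2 were not decided in limma. The cytokine receptor subunit IL6ST, shared by LIF and related factors, was highest at 44.7, 83.1 and 64.0 RPKM in cultures 1, 2 and 3. MANF, a secreted factor of the endoplasmic reticulum, had 37.9, 56.8 and 54.3 RPKM. Midkine (MDK), a heparin-binding growth factor, had 14.2, 12.5 and 2.63 RPKM, with culture 3 apart. LIF, chosen after its values were seen, had 3.91, 6.85 and 12.4 RPKM, with culture 3 highest.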
